A study of Mus musculus with 61 samples.

Results

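The T-cell members of the tumor necrosis factor (TNF) receptor superfamily were followed through mouse T cells and spleens that differed in the transcription factor STAT5B. The set is a fixed list of 10 receptors (Tnfrsf1a, Tnfrsf1b, Tnfrsf4, Tnfrsf8, Tnfrsf9, Tnfrsf18, Tnfrsf25, Tnfrsf26, Cd27 and Fas), matched by gene symbol among the 24421 genes counted in each library. All 10 were found, and all 10 passed the low-count filter (at least 10 reads over the libraries of a fit) in every comparison.

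TNF receptors are cell-surface proteins that bind trimeric ligands of the TNF family and pass the signal to adaptor proteins called TRAFs or, where the receptor carries a death domain, to a caspase pathway. On T cells the OX40 (Tnfrsf4), GITR (Tnfrsf18), 4-1BB (Tnfrsf9), CD30 (Tnfrsf8) and CD27 receptors act as co-stimulators that lengthen survival and shape memory, and OX40 and GITR are also abundant on regulatory T cells. TNFR1 (Tnfrsf1a), Fas and DR3 (Tnfrsf25) carry death domains, TNFR2 (Tnfrsf1b) is the second receptor for TNF, and Tnfrsf26 is a mouse receptor that lacks a death domain. STAT5 is the transcription factor activated by interleukin-2 (IL-2) and interleukin-7 (IL-7), the cytokines that carry T cells through expansion and survival.

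RNA sequencing was performed on 61 libraries in 17 groups, all labelled C57BL/6 and 2 months old. In the first experiment naïve CD4 T cells, sorted from lymph nodes and spleens that had been pooled, were activated through the T-cell receptor and CD28, transduced with a retrovirus, kept in IL-2 for 48 h and sorted on the GFP that marks the vector. The cells were Stat5a/b-null (Stat5a and Stat5b deleted by Cre under the Cd4 promoter) or WT, although the genotype label gives floxed Stat5a/b for the WT libraries too. Each received an empty vector or a vector that encodes native STAT5B or its mutant N642H, Y665F or Y665H, with 3 libraries in each of the 10 groups. N642H is a known activating mutation from T-cell leukemia, and the Y665 substitutions, also found in T-cell leukemia, exchange 1 tyrosine for phenylalanine or histidine. A vector is read from its own promoter, so its STAT5B level is not set by the native gene. The paper reports that the vectors brought Stat5b mRNA in null cells back close to WT.

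In the second experiment T cells were isolated from spleens of WT mice and of mice with the Y665H or Y665F substitution in Stat5b, introduced by genome editing, and cultured for 24 h with IL-2 plus IL-7, with 4 libraries for each genotype. A further 3 Y665F libraries had no interleukin, and the study describes its unstimulated T cells as taken directly after isolation. In the third, spleens (splenocytes in the titles) were sequenced from 4 WT, 5 Y665H and 7 Y665F mice. Levels are in CPM, read counts relative to the size of the library, which was scaled by the trimmed mean of M-values (TMM) within each material, and each error is the SD between libraries. The labels do not say that libraries of a CD4 group came from separate mice, so p-values there measure the spread between these libraries.

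The reads assigned to genes numbered 18825994 to 49850689 in the CD4 libraries, 24203179 to 43330536 in the spleens and 2017012 to 27394249 in the splenic T cells, where the 3 shallowest held 2017012 and 3310342 (Y665H replicates 2 and 1) and 2851451 (Y665F replicate 3). Stat5b stood at 2.78, 5.30 and 9.49 CPM in null and at 187, 209 and 207 CPM in WT cells that carried the empty vector, and all 12 null libraries with a STAT5B vector held 186 to 365 CPM. The labels thus matched the gene they name. The pan-T marker Cd3e was present in all the CD4 libraries (180 to 548 CPM) and B-cell markers summed to at most 6.38 CPM there. Replicate 3 of the Y665F T cells with interleukins stood apart: its B-cell markers summed to 713 CPM and its erythroid markers to 839 CPM, its T-cell markers to 1459 CPM, and it was 1 of the 3 shallowest. The 4 WT T-cell libraries had B-cell sums of 14.5 to 99.1 CPM and T-cell sums of 3159 to 4867 CPM.

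The materials were led by different receptors. Levels of different genes are compared here as CPM per kilobase of exon. In the null CD4 cells that received the empty vector, Tnfrsf4 (238 ± 45.0 CPM per kb, SD, n = 3) and Tnfrsf18 (204 ± 40.5) led and their libraries overlapped. Tnfrsf9 followed with 158 ± 17.3 CPM per kb, Cd27 with 69.3 ± 8.43 and Tnfrsf1b with 31.7 ± 6.45, each apart from its neighbours. Fas (11.4 CPM per kb) and Tnfrsf25 (7.65) overlapped, and Tnfrsf1a (5.50), Tnfrsf26 (3.46) and Tnfrsf8 (0.503) closed the order. In these cells the 4 highest receptors were co-stimulators, and the death-domain receptors were among the 5 lowest.

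In the splenic T cells Tnfrsf26 ranked first in all 4 groups, with group means of 54.5 to 96.6 CPM per kb. Cd27 came second in all 4, with no overlap with the Tnfrsf26 libraries in Y665H and in Y665F without interleukins. In Y665F with interleukins the first 6 receptors in the order each overlapped the next. In the spleens Tnfrsf1b ranked first in every genotype, with group means of 26.6 to 35.7 CPM per kb, and Tnfrsf8 was last throughout, at 0.192 to 0.346 CPM per kb.

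The genes are spread over several chromosomes of the mouse genome (build mm10, GENCODE annotation). Chromosome 4 holds 6 of them, and Tnfrsf4 (chr4:156013843-156016612, plus strand) and Tnfrsf18 (chr4:156026164-156028895, plus strand) are neighbours with 9551 bases between them. Cd27 (chr6:125232622-125237010, minus strand) lies 112351 bases from Tnfrsf1a, Tnfrsf9 is at chr4:150914562-150946102 and Tnfrsf8 at chr4:145267137-145315164. The 250 bases before the RefSeq start (GRCm38.p6, the build of the files) are shown for Tnfrsf4 and Cd27, which moved in opposite directions with the N642H and Y665F vectors. For Tnfrsf18, which moved with Tnfrsf4, a stretch of 29 bases around the only match to the letters TTCNNNGAA is shown, with the match in capitals. STAT proteins are known to bind TTCNNNGAA, which reads the same on both strands.
Tnfrsf4 (chr4:156013445-156013694, plus strand): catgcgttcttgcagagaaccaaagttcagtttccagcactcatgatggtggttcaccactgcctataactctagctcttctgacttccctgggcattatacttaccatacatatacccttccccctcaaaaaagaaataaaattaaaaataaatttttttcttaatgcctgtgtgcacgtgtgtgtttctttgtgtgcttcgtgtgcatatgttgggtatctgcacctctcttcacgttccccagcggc
Cd27 (chr6:125237028-125237277, minus strand): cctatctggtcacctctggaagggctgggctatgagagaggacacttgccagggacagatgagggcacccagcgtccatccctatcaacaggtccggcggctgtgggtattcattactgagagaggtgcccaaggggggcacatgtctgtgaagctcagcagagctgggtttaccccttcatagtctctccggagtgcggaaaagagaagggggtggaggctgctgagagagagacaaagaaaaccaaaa
Tnfrsf18 (chr4:156026213-156026241, plus strand): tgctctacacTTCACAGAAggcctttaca

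The Tnfrsf18 match ended 90 bases before the RefSeq start, and the Tnfrsf4 and Cd27 windows held no TTCNNNGAA. Among the 9 receptors with such a window, 6 held the letters (Fas, Tnfrsf1a, Tnfrsf1b, Tnfrsf9, Tnfrsf18 and Tnfrsf25), or 6 of their 11 windows, against 7.02% of the 32851 RefSeq promoter windows of this length. The letters TGANTCA, which AP-1 proteins are known to bind and which do not overlap TTCNNNGAA in these windows, were in the windows of Fas, Tnfrsf8 and Tnfrsf9 and in 6.75% of all windows. A RefSeq start can lie inside the GENCODE gene, and the matches of Tnfrsf1a, Tnfrsf9, Tnfrsf18 and Tnfrsf25 fell within the GENCODE bounds of these genes. A match describes the sequence alone: the 6 include Tnfrsf18, which was called in null CD4 cells, and Fas, which was called in no comparison.

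In Stat5a/b-null CD4 cells Tnfrsf18, a co-stimulator gene, rose with native STAT5B, N642H and Y665F. With N642H and Y665F the co-stimulator gene Tnfrsf4 also rose and Cd27 fell. No receptor passed with STAT5B Y665H. With the empty vector Tnfrsf18 stood at 273, 278 and 382 CPM in the 3 null libraries. It was 527, 548 and 501 CPM with STAT5B, 521, 568 and 622 CPM with N642H, and 565, 562 and 658 CPM with Y665F. With Y665H it was 308, 375 and 341 CPM. Every library with STAT5B, N642H or Y665F lay above all 3 with the empty vector, whereas the Y665H libraries fell within the empty-vector range.

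The Tnfrsf18 log2 fold change against the empty vector was 0.75 ± 0.13 (SE) for STAT5B (adjusted p = 0.00677, edgeR quasi-likelihood test with Benjamini-Hochberg adjustment over all genes). It was 0.84 ± 0.13 for N642H (adjusted p = 0.000498) and 0.91 ± 0.13 for Y665F (adjusted p = 0.000309), a 1.79-fold and a 1.88-fold rise. For Y665H it was 0.15, with a 95% interval of -0.12 to 0.43 (adjusted p = 0.916). The STAT5B call was lost without replicate 1 or 2 of the empty vector or replicate 2 of STAT5B (log2 fold changes of 0.65, 0.68 and 0.67). In bulk libraries such as these, fewer cells of a type and less RNA per cell cannot be told apart.

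Tnfrsf4 followed the same course over a smaller range. Its levels were 281, 299 and 395 CPM with the empty vector, 404, 438 and 431 CPM with STAT5B, 409, 449 and 469 CPM with N642H, 465, 454 and 540 CPM with Y665F and 308, 343 and 321 CPM with Y665H. Again the 3 vectors other than Y665H lay wholly above the empty vector. Tnfrsf4 rose by a log2 fold change of 0.41 ± 0.12 with N642H (adjusted p = 0.0388) and 0.55 ± 0.12 with Y665F (adjusted p = 0.00826), and the 0.37 ± 0.12 of STAT5B did not pass (adjusted p = 0.133). The N642H call was lost without any one of 5 of the 6 libraries compared (adjusted p of 0.0556 to 0.149), and the Y665F call without replicate 2 of the empty vector (0.50, adjusted p = 0.0502).

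Cd27, a receptor of naïve and early memory T cells that late effector cells lose, went down. It stood at 163, 180 and 141 CPM with the empty vector, at 94.6, 121 and 115 CPM with STAT5B, at 65.6, 86.0 and 83.7 CPM with N642H and at 70.4, 83.7 and 90.3 CPM with Y665F. With Y665H it was 133, 166 and 131 CPM, overlapping the empty vector. Cd27 fell by 1.08 on the log2 scale with N642H (SE 0.14, adjusted p = 0.000116) and fell by 1.01 with Y665F (SE 0.14, adjusted p = 0.000224), to 0.474-fold and 0.495-fold. The change with STAT5B was -0.56 ± 0.14 (adjusted p = 0.0545), and with Y665H it was -0.15 (95% interval -0.45 to 0.14).

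**Figure D1:**
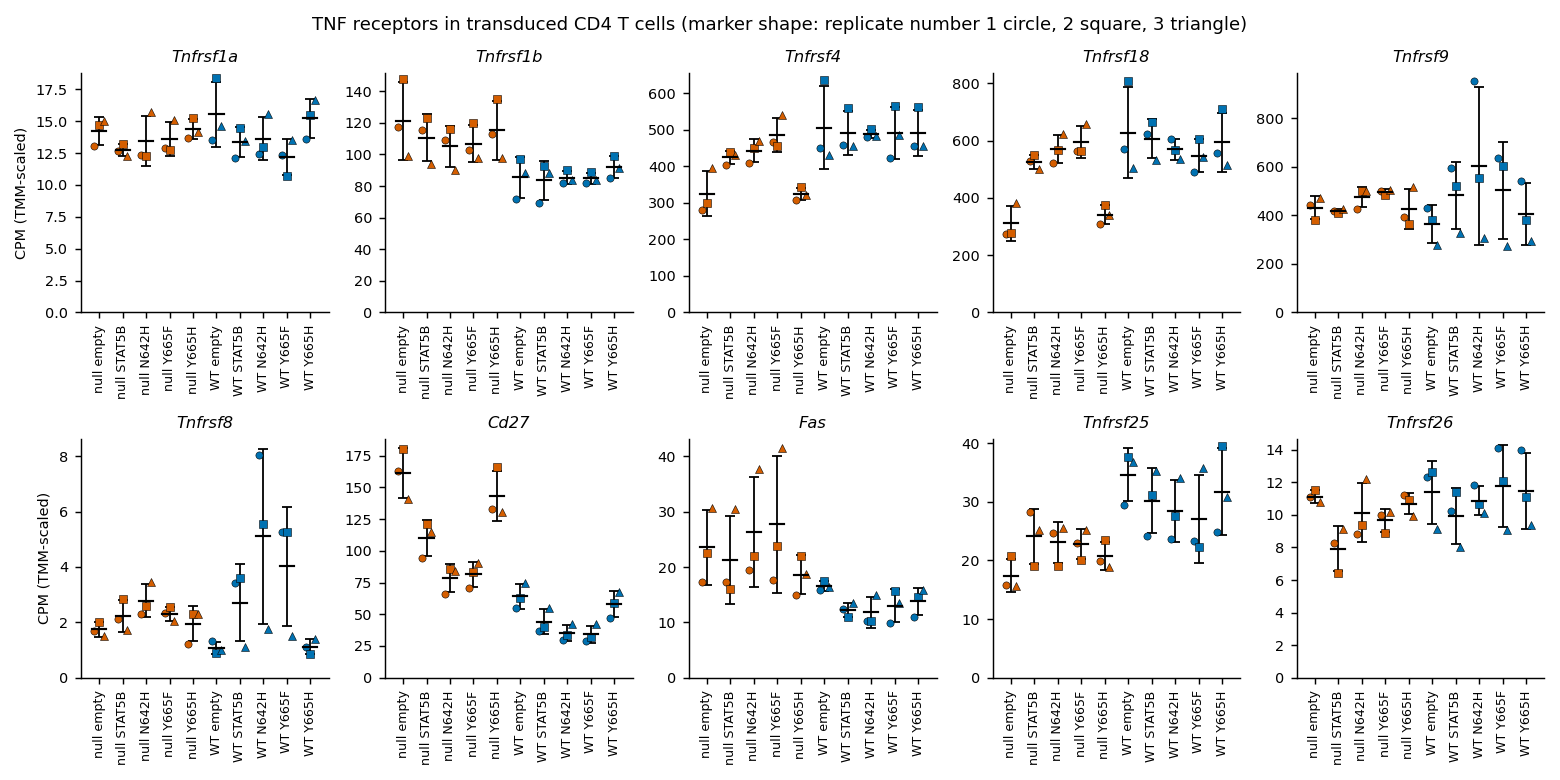
CPM (TMM-scaled, linear axis from 0) of the 10 receptors in the 30 CD4 libraries, by background and vector, 1 panel a gene. Points are libraries with a marker shape for each replicate number, and the bars give the mean ± SD of 3. In Stat5a/b-null cells Tnfrsf18 stood at 273 to 382 CPM with the empty vector and at 501 to 658 CPM with STAT5B, N642H or Y665F, and in WT cells the replicate 3 points of Tnfrsf8 and Tnfrsf9 lie under the others with N642H and Y665F.

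Among the 10 receptors, 1 was called higher with STAT5B, against 1.52% of all 20113 genes tested in either direction. With N642H 3 were called (2 higher, 1 lower) against 11.6% of all genes, and with Y665F 3 (2 higher, 1 lower) against 9.58%. With Y665H 0 were called by edgeR, 0 at an unadjusted p under 0.05 and 0 by DESeq2, against 0.0249% of all genes called. The median log2 fold change of the 10 was -0.10, 0.11, 0.19 and 0.00 for STAT5B, N642H, Y665F and Y665H, beside medians of all genes between -0.02 and 0.04.

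The other 7 receptors did not pass with any vector in null cells. Tnfrsf9, for 4-1BB, stood between 365 and 519 CPM in all 15 libraries. Tnfrsf1b ranged from 90.4 to 148 CPM, Tnfrsf1a from 12.3 to 15.7 CPM and Fas from 15 to 41.6 CPM. Tnfrsf25 had intervals above 0 with N642H (log2 fold change 0.36, interval 0.01 to 0.71) and STAT5B (0.46, 0.11 to 0.81), with adjusted p of 0.186 and 0.181. Tnfrsf8 was scarce, at 1.22 to 3.46 CPM, and Tnfrsf26 at 6.43 to 12.2 CPM was lower in all 3 STAT5B libraries than in the 3 with the empty vector (-0.50 ± 0.16, adjusted p = 0.122).

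The null libraries with the same replicate number deviated from their group means together, so the comparisons were also fitted with the number as a block. The block added Tnfrsf4 (0.39, adjusted p = 0.0112), Tnfrsf26 (-0.51, adjusted p = 0.0273) and Cd27 (-0.57, adjusted p = 0.00132) to the calls for STAT5B, which then numbered 4. In all 3 pairs Tnfrsf18 and Tnfrsf4 were higher and Cd27 lower than the empty vector, with STAT5B, N642H and Y665F alike. The Tnfrsf18 ratio within pairs ran from 1.31 to 1.97 for STAT5B, from 1.63 to 2.04 for N642H and from 1.72 to 2.07 for Y665F.

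The mutants were next compared with native STAT5B in the null cells. N642H and Y665F left 0 receptors called (1 and 1 at an unadjusted p under 0.05, 0 and 0 by DESeq2), against 0.0845% and 0.0199% of all genes. Cd27 was lower in every N642H and Y665F library than in every STAT5B library, by -0.52 ± 0.14 (adjusted p = 0.352) and -0.45 ± 0.14 (adjusted p = 0.681). With the replicate block both passed (-0.52, adjusted p = 0.0119, and -0.45, adjusted p = 0.0428), and Cd27 was lower in 3 of 3 pairs. For Tnfrsf18 the intervals of the difference were -0.18 to 0.36 for N642H and -0.11 to 0.43 for Y665F.

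Y665H stood below STAT5B for Tnfrsf18 in all 3 libraries (-0.60 ± 0.13, adjusted p = 0.0678) and for Tnfrsf4 (-0.36 ± 0.12, adjusted p = 0.268), and above it for Cd27 (0.41 ± 0.14, adjusted p = 0.282). No receptor passed (4 at an unadjusted p under 0.05, 2 by DESeq2), against 0.229% of all genes. In the fit with the block all 3 passed, Tnfrsf18 at -0.60 (adjusted p = 0.00219), Tnfrsf4 at -0.37 (adjusted p = 0.0278) and Cd27 at 0.41 (adjusted p = 0.0233). Y665F and N642H differed in 0 receptors, with 0 at an unadjusted p under 0.05 and 0 by DESeq2, against 0% of all genes (181 genes at an unadjusted p under 0.05). Their widest interval among the 3 responding genes was -0.23 to 0.36, for Cd27.

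**Figure D2:**
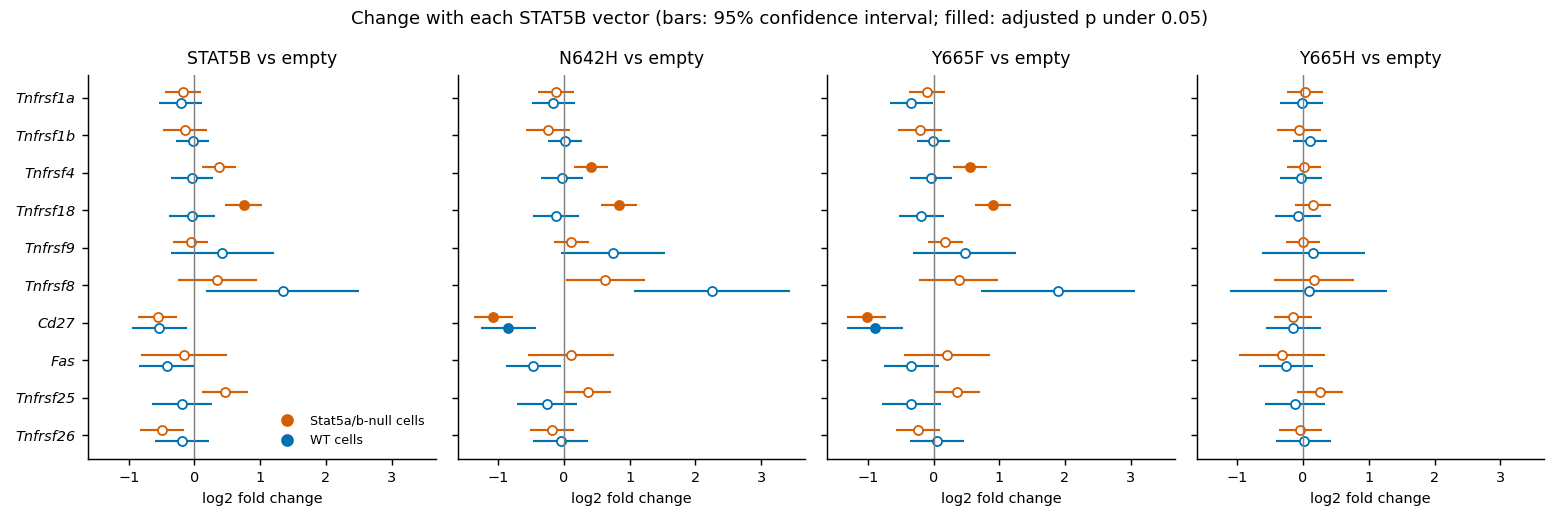
Log2 fold change against the empty vector (horizontal axis) of each receptor (vertical axis) with each STAT5B vector, in Stat5a/b-null and in WT CD4 cells. Values are from edgeR without a replicate block. Lines are 95% intervals and filled points passed at an adjusted p of 0.05: Tnfrsf18, Tnfrsf4 and Cd27 in null cells and Cd27 alone in WT cells.

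In WT CD4 cells, which keep their own STAT5, Tnfrsf18 and Tnfrsf4 did not pass with any vector. Tnfrsf18 stood at 572, 807 and 505 CPM with the empty vector and between 490 and 710 CPM with the 4 STAT5B vectors, with overlap throughout. Tnfrsf4 was 449, 636 and 431 CPM with the empty vector and 421 to 565 CPM with the others. Their log2 fold changes with N642H were -0.12 (95% interval -0.47 to 0.22) and -0.03 (-0.35 to 0.29).

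Cd27 again went down. Its WT libraries had 54.9, 63.0 and 74.4 CPM with the empty vector, 29.4, 33.6 and 42.3 CPM with N642H, 29.2, 31.7 and 42.0 CPM with Y665F, and 36.6, 40.3 and 55.2 CPM with STAT5B. N642H and Y665F did not overlap with the empty vector, and STAT5B did by its highest library. The log2 fold changes of Cd27 with N642H (-0.85 ± 0.20, adjusted p = 0.0427) and Y665F (-0.89 ± 0.20, adjusted p = 0.0388) passed narrowly. Both calls were lost without any 1 of the empty-vector libraries or without replicate 1 or 2 of the mutant, with log2 fold changes from -0.73 to -0.98 and adjusted p of 0.0611 to 0.254.

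Tnfrsf8, which encodes CD30, was at 1.32, 0.891 and 1.01 CPM in WT cells with the empty vector. It reached 8.03 and 5.54 CPM in replicates 1 and 2 of N642H but 1.75 CPM in replicate 3. With Y665F it was 5.27, 5.25 and 1.52 CPM, and with STAT5B 3.43, 3.58 and 1.13 CPM. Y665H held 1.12, 0.868 and 1.39 CPM. All N642H and Y665F libraries lay above the empty vector, and with STAT5B, N642H and Y665F replicate 3 was the lowest of its group.

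The log2 fold changes of Tnfrsf8 were 2.25 ± 0.56 for N642H (adjusted p = 0.0608) and 1.90 ± 0.55 for Y665F (adjusted p = 0.113). Without replicate 3 of all 5 WT vectors, a setting chosen after these values were seen, they were 2.62 (adjusted p = 5.5e-05) and 2.26 (adjusted p = 0.000223), and STAT5B gave 1.69 (adjusted p = 0.0119). Tnfrsf9 had the same spread, with 953, 555 and 305 CPM for N642H, 636, 603 and 275 CPM for Y665F and 430, 382 and 278 CPM for the empty vector, so that the groups overlapped. Its N642H log2 fold change was 0.75 ± 0.37 (adjusted p = 0.505), and 0.90 without the third replicates (adjusted p = 0.0209). What set the third replicates apart was not tested.

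In WT cells 1 receptor was called with N642H, against 1.52% of 20509 genes, and 1 with Y665F, against 1.26%. STAT5B called 0 (3 at an unadjusted p under 0.05, 0 by DESeq2) against 0.00975% of all genes, and Y665H called 0 (0 and 0) against 0.00488%. Against the STAT5B vector, N642H, Y665F and Y665H called 0 each by edgeR, 0, 0 and 1 at an unadjusted p under 0.05 and 0, 0 and 0 by DESeq2, against 0.00488%, 0% (632 genes at an unadjusted p under 0.05) and 0.00488% of all genes. Fas was lower in all 3 libraries of STAT5B, N642H and Y665F (9.84 to 15.7 CPM) than in the empty vector (15.8 to 17.5 CPM), with no call. With the replicate number as a block, more receptors were called with STAT5B, N642H and Y665F than here, as given under the processing.

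With the empty vector, null and WT cells differed in 5 receptors, 2 higher and 3 lower in the null cells, against 13.9% of 21975 genes called. Cd27 was 2.51-fold higher in null cells (log2 fold change 1.33 ± 0.18, adjusted p = 7.75e-06) and Tnfrsf1b 1.41-fold higher (0.50 ± 0.15, adjusted p = 0.0228). Tnfrsf18 fell by 1.01 (SE 0.16, adjusted p = 5.27e-05), Tnfrsf25 fell by 0.99 (SE 0.20, adjusted p = 0.00101) and Tnfrsf4 fell by 0.64 (SE 0.14, adjusted p = 0.00327) on the same scale. For none of these 5 genes did null and WT libraries overlap. With only these 2 groups fitted, 3 were called, without Tnfrsf4 (adjusted p = 0.05002) and Tnfrsf1b (adjusted p = 0.0818). Tnfrsf25, the receptor for TL1A, had 15.8, 20.7 and 15.7 CPM in null and 29.5, 37.7 and 36.8 CPM in WT cells. Tnfrsf1b had 117, 148 and 98.8 CPM against 71.5, 97.0 and 88.4 CPM.

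The Tnfrsf4 difference rested on replicate 2 of the WT empty vector (-0.44 without it, adjusted p = 0.0597), and the Tnfrsf1b difference on replicate 2 of the null and replicate 1 of the WT empty vector (0.34 and 0.39 without them, adjusted p = 0.201 and 0.139). The median log2 fold change of all genes in this comparison was -0.12. Preparation and genotype cannot be told apart in this comparison.

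The response itself was compared between backgrounds by an interaction term. For Tnfrsf18 the response was larger in null cells by 1.02 ± 0.22 on the log2 scale with N642H (adjusted p = 0.0277), where the median of all genes was 0.11, and by 1.14 ± 0.22 with Y665F (adjusted p = 0.00797). It was 0.81 ± 0.22 with STAT5B (adjusted p = 0.359) and 0.22 with Y665H (95% interval -0.23 to 0.66). The 4 terms called 0, 1, 1 and 0 receptors for STAT5B, N642H, Y665F and Y665H, against 0.105%, 0.387%, 0.478% and 0.00455% of all genes. For STAT5B and Y665H 3 and 0 receptors had an unadjusted p under 0.05 and 0 and 0 were called by DESeq2. With a replicate block the STAT5B, N642H and Y665F terms called more receptors, as given under the processing.

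These interactions share the spread of all 30 CD4 libraries. Fitted on the 4 groups each one compares, they gave 1.02 (adjusted p = 0.0956) and 1.09 (adjusted p = 0.105). Without replicate 2 of the WT empty vector, whose Tnfrsf18 level of 807 CPM was the highest of the 30, they were 0.80 (adjusted p = 0.163) and 0.91 (adjusted p = 0.0516), and without replicate 2 of the null empty vector 0.91 (adjusted p = 0.122) and 1.02 (adjusted p = 0.0544). The N642H call was also lost without replicate 1 of the null empty vector (0.93), replicate 2 or 3 of the null N642H vector (0.98 and 0.95) or replicate 2 or 3 of the WT N642H vector (1.01 and 0.98). For Cd27 the interaction was -0.17 with N642H (95% interval -0.68 to 0.33) and -0.08 with Y665F (-0.59 to 0.43).

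The ligands of these receptors were looked up in the same tests. Of 9 ligand genes, Lta (lymphotoxin alpha, which binds both TNF receptors) rose in null cells from 14.9 ± 3.25 CPM with the empty vector to 88.2 ± 26.7 CPM with STAT5B (log2 fold change 2.56 ± 0.33, adjusted p = 0.00042), and by 4.33 ± 0.36 with N642H and 4.20 ± 0.35 with Y665F. Tnf rose by 0.77 with STAT5B, 1.28 with N642H and 1.16 with Y665F, and Fasl, the ligand of Fas, fell by 0.73 with N642H. No other ligand was called with those vectors, which makes 2 of 9 with STAT5B, 3 of 9 with N642H and 2 of 9 with Y665F. Of all genes, 1.52%, 11.6% and 9.58% were called with these vectors. Lta also separated N642H from STAT5B (1.77, adjusted p = 0.035) and Y665H from STAT5B (-1.87, adjusted p = 0.021).

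In WT cells Lta rose by 2.03 with N642H and 1.98 with Y665F, and Tnfsf4, the ligand of OX40, by 1.06 and 0.91. These were again 2 of 9 ligands each, against 1.52% and 1.26% of all genes. With the empty vector Lta was at 14.9 CPM in null and 188 CPM in WT cells (-3.66 ± 0.47), Tnf was lower in null cells (-1.73) and Tnfsf4 higher (1.89). Receptor and ligand of the OX40 pair thus differed between the backgrounds with opposite signs.

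Among 18 other TNF receptors, Relt rose with STAT5B, N642H and Y665F in null cells (0.70, 0.64 and 0.58), Tnfrsf13b (TACI) rose with N642H and Y665F (1.15 and 1.04) and Tnfrsf14 (HVEM) fell by 0.77 and by 0.89. Of 14 adaptor and death-signalling genes, 4 were called with N642H and 3 with Y665F, against 11.6% and 9.58% of all genes. Traf6 rose (0.79 and 0.85), and Traf1 fell by 0.58 and 0.50. Of 14 NF-kB factors and targets, Bcl2l1 (a survival gene) rose with N642H and Y665F (0.94 and 0.97) while Tnfaip3 (an inhibitor of NF-kB signalling) fell by 0.62 with N642H. The T-cell markers Cd3d and Cd3g, picked for the size of their change, fell by 0.70 and 0.64 with N642H. The summed T-cell markers were 5048 to 5659 CPM with the empty vector and 4614 to 4923 CPM with N642H. The regulatory T-cell gene Foxp3, picked likewise, rose from 5.80 CPM (3.18 to 10.8) to 19.6 CPM (18.5 to 21.6), by 1.71 ± 0.48. The part of T-cell states in the receptor changes was not tested.

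In splenic T cells cultured with IL-2 and IL-7, Tnfrsf9 separated the genotypes. It stood at 44.3, 39.2, 43.0 and 22.8 CPM in WT, 5.42, 19.4, 16.8 and 10.8 CPM in Y665H and 124, 80.4, 46.7 and 97.3 CPM in Y665F. All the Y665H libraries lay under all the WT ones and all the Y665F libraries above them. Between the mutants the difference was 6.72-fold (log2 fold change 2.75 ± 0.37, adjusted p = 9.97e-05). Against WT it was 1.23 ± 0.34 for Y665F (adjusted p = 0.061) and -1.52 ± 0.36 for Y665H (adjusted p = 0.141). Without replicate 3 of Y665F, the library that stood apart, Y665F against WT was 1.43 (adjusted p = 0.0316), and without the 3 shallowest libraries it was 1.46 (adjusted p = 0.00463).

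Tnfrsf8 followed the order of Tnfrsf9 at counts of a few reads. The 4 WT libraries held 8, 15, 17 and 6 reads, the Y665H libraries 0, 1, 4 and 1 and the Y665F libraries 32, 19, 6 and 22, or 0.393 to 0.753, 0 to 0.486 and 1.35 to 1.83 CPM. A count of 0 allows up to 3 reads, and the intervals behind such counts are wide. The difference between Y665F and Y665H (2.73 ± 0.79, adjusted p = 0.0404) was lost without any one of 7 of the 8 libraries (adjusted p of 0.0537 to 0.138) and without the 3 shallowest libraries (2.62, adjusted p = 0.199).

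Tnfrsf26, the leading receptor of these cells, was lower in Y665F, with 207, 211, 128 and 155 CPM against 308, 302, 295 and 262 CPM in WT and 294, 313, 329 and 306 CPM in Y665H. Y665F lay below both other genotypes in every library. It fell by 0.82 against Y665H (SE 0.20, adjusted p = 0.0133), a call that was lost without replicate 4 of either group (-0.80 and -0.77, adjusted p = 0.0672 and 0.0542) and without the 3 shallowest libraries (-0.69, adjusted p = 0.234). Against WT it was -0.73 ± 0.20 (adjusted p = 0.0557). Tnfrsf22 and Tnfrsf23, its neighbours and close relatives, could share its reads, and Tnfrsf22 fell by 0.90 in the same comparison.

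Cd27 was 118, 122, 214 and 170 CPM in WT, 116, 118, 89.3 and 118 CPM in Y665H and 109, 96.8, 40.0 and 77.8 CPM in Y665F, all 4 of the last below WT (-0.94 ± 0.26, adjusted p = 0.0616). The T-cell marker sum was lowest in Y665F replicate 3. With libraries scaled to the geometric mean of the T-cell marker counts, the difference between Y665F and WT was -0.27 for Cd27 and -0.0075 for Tnfrsf26. So scaled, Tnfrsf26 in Y665F against Y665H was -0.39 (adjusted p = 0.347). Tnfrsf18 was spread most in WT, at 48.4, 81.7, 159 and 58.3 CPM, and overlapped Y665H (33.0 to 58.2 CPM) and Y665F (18.9 to 71.8 CPM). Tnfrsf1b was higher in all Y665H libraries (92.5 to 102 CPM) than in WT (56.7 to 80.4 CPM), with no call (0.54 ± 0.21, adjusted p = 0.481).

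The medians of all genes in the splenic T-cell comparisons were -0.13 to 0.13. Of the 10 receptors, 0 were called for Y665F against WT (6 at an unadjusted p under 0.05, 3 by DESeq2), with 1.87% of 22313 genes called. For Y665H against WT 0 were called (3 at an unadjusted p under 0.05, 1 by DESeq2) with 0.0762% of genes called, and for Y665F against Y665H 3 (2 higher, 1 lower) with 6.18%. In the last comparison naïve T-cell markers fell (4 of 7 called lower), activated or memory markers rose (5 of 8), B-cell markers rose (5 of 8) and NK-cell markers rose (3 of 3 tested). The B-cell sums were 18 to 34.5 CPM in Y665H and 19.8 to 713 CPM in Y665F. The NK-cell sums were 14.3 to 32.2 CPM in Y665H and 68.1 to 92.6 CPM in Y665F. The part of these cells in the receptor values was not tested.

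**Figure D3:**
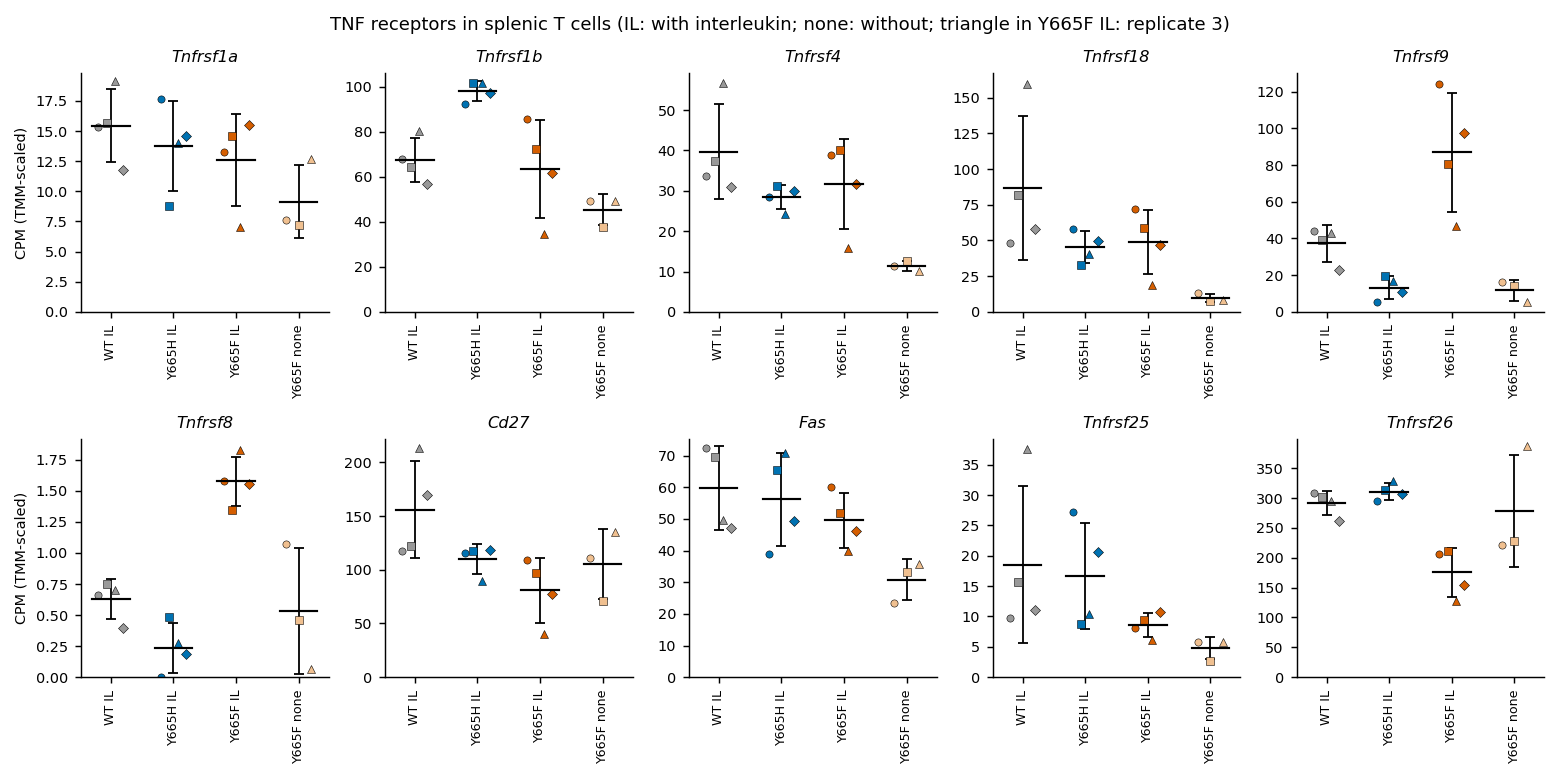
CPM (TMM-scaled, linear axis from 0) of the 10 receptors in the 15 splenic T-cell libraries: WT, Y665H and Y665F with IL-2 and IL-7, and Y665F without interleukin. Points are libraries, with a marker shape for each replicate number, and the bars give the mean ± SD of 4, 4, 4 and 3. Tnfrsf9 rises from Y665H (5.42 to 19.4 CPM) over WT (22.8 to 44.3 CPM) to Y665F (46.7 to 124 CPM).

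The co-stimulator genes Tnfrsf4, Tnfrsf9 and Tnfrsf18 were higher in Y665F T cells with interleukins than in those without. Tnfrsf9 had 16.2, 14.1 and 5.30 CPM without interleukins, against 46.7 CPM or more with them (2.89 ± 0.41, a 7.44-fold difference, adjusted p = 8.05e-05). Tnfrsf18 had 13.0, 7.64 and 8.25 CPM against 18.9 to 71.8 CPM (2.38 ± 0.41, adjusted p = 0.000685). Tnfrsf4 had 11.5, 12.5 and 10.1 CPM against 15.9 to 40.2 CPM (1.49 ± 0.28, adjusted p = 0.00203). The groups did not overlap for any of the 3, which were the receptors called, against 3.85% of all genes.

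Tnfrsf26 stood at 222, 228 and 387 CPM without interleukins, above all 4 libraries with them (-0.67 ± 0.21, adjusted p = 0.084), and Fas at 23.4, 33.1 and 35.8 CPM, below all 4 (0.69 ± 0.24, adjusted p = 0.13). Among ligands 4 of 9 rose: Tnf from 2.57 to 73.2 CPM (4.84 ± 0.44), Lta from 3.94 to 39.6 CPM (3.32 ± 0.31), Fasl (1.48) and Tnfsf8 (1.09), the ligand of CD30. Of 14 NF-kB genes 5 rose, among them Bcl3 (2.51), Bcl2l1 (1.98) and Nfkbiz (1.89). The share of all genes called in this comparison was 3.85%. Cells with interleukins had spent 24 h in culture, and culture and cytokine cannot be told apart here. Cell-state markers also differed: the summed activated or memory markers were 409 to 654 CPM without and 1189 to 1931 CPM with interleukins, the naïve markers 5125 to 8586 and 1926 to 4461 CPM, and the NK-cell markers 25.1 to 30.8 and 68.1 to 92.6 CPM. Their part in the receptor values was not tested.

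In spleens 6 receptors were higher in Y665F than in WT, 3 were lower in Y665H than in WT, and 7 were higher in Y665F than in Y665H. The shares of all 19418 genes called were 12.2%, 19.8% and 25.8%. Tnfrsf25 changed most against WT. It ran from 3.33 to 5.97 CPM in 4 WT spleens (3.33, 4.25, 4.52 and 5.97), from 3.59 to 7.28 CPM in 5 Y665H spleens, and from 7.78 over a median of 9.31 to 11.2 CPM in 7 Y665F spleens. Y665F lay above every other spleen, by a log2 fold change of 1.07 ± 0.18 against WT (adjusted p = 0.00137).

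Tnfrsf4 was 4.89, 7.38, 8.46 and 8.36 CPM in WT and 9.23 to 16.5 CPM (median 13.6) in Y665F, without overlap (0.87 ± 0.17, adjusted p = 0.00406). Tnfrsf18 was 9.04, 10.9, 13.6 and 14.9 CPM in WT and 15.5 to 21.0 CPM (median 17.6) in Y665F, also apart (0.57 ± 0.15, adjusted p = 0.0218). Tnfrsf9 overlapped by 1 library, at 7.56 to 9.85 CPM in WT and 9.63 to 15.2 CPM in Y665F (0.53 ± 0.14, adjusted p = 0.0212). Tnfrsf1b rose by 0.30 ± 0.07 (adjusted p = 0.0158) from 97.4 to 123 CPM in WT to 125 to 146 CPM in Y665F.

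Cd27 stood at 37.5, 42.9, 39.9 and 44.7 CPM in WT, at 40.2, 23.8, 26.6, 26.3 and 27.3 CPM in Y665H and at 47.2 to 71.8 CPM (median 61.7) in Y665F. Y665F lay above both other genotypes in all 7 spleens, and Y665H lay below WT in 4 of 5. Cd27 rose in Y665F (0.55 ± 0.13, adjusted p = 0.0112) and fell by 0.52 in Y665H (SE 0.14, adjusted p = 0.0129), so that the mutants differed by 1.07 ± 0.12 (adjusted p = 1.39e-05). Also lower in Y665H were Tnfrsf26, which fell by 0.54 (SE 0.11, adjusted p = 0.00372), and Tnfrsf9, which fell by 0.44 (SE 0.15, adjusted p = 0.0475). Single spleens carried some of these calls. Without replicate 1 of WT, Tnfrsf1b (0.25), Tnfrsf9 (0.46) and Tnfrsf18 (0.46) no longer passed in Y665F. Without replicate 2 of WT, Tnfrsf1b (0.28) and Tnfrsf18 (0.53) no longer passed there. In Y665H, Cd27 missed the threshold without replicate 2 of WT (-0.47, adjusted p = 0.051) and Tnfrsf9 without any one of 7 of the 9 spleens compared (-0.37 to -0.45). The death-domain receptors Tnfrsf1a (26.8 to 40.9 CPM in all 16 spleens) and Fas (16 to 26.3 CPM) and the scarce Tnfrsf8 did not pass in any comparison.

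**Figure D4:**
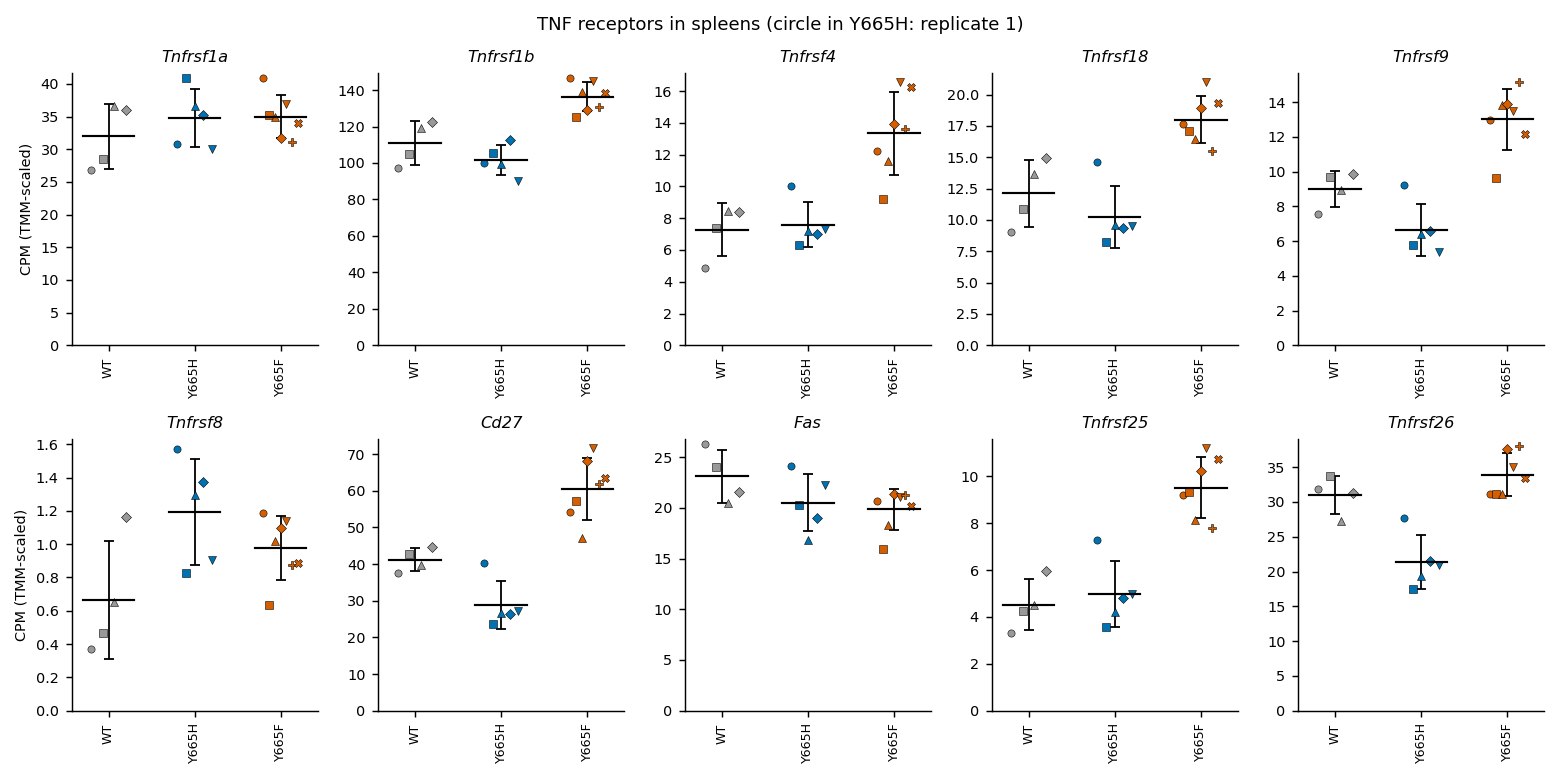
CPM (TMM-scaled, linear axis from 0) of the 10 receptors in the 16 spleens, by Stat5b genotype. Points are spleens, with a marker shape for each replicate number, and the bars give the mean ± SD of 4 WT, 5 Y665H and 7 Y665F. For Cd27, Y665H replicate 1 (40.2 CPM) lies in the WT range, apart from the other Y665H spleens (23.8 to 27.3 CPM).

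The T-cell markers of the spleens moved with the receptors. Of 13 T-cell markers tested, 9 were higher in Y665F than in WT, 7 were lower in Y665H than in WT and 13 were higher in Y665F than in Y665H. The shares of all genes called in either direction were 12.2%, 19.8% and 25.8%. The summed T-cell markers are given next. Their sums were 839 to 994 CPM in WT, 575 to 859 CPM in Y665H and 1112 to 1517 CPM in Y665F, without overlap between Y665F and the others. The regulatory T-cell list rose in Y665F too (5 of 8 called higher against WT), with Foxp3 at 8.30 CPM in WT and 18 CPM in Y665F (1.12 ± 0.15). The erythroid sums were 504 to 960 CPM in WT, 323 to 2401 CPM in Y665H and 217 to 703 CPM in Y665F.

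Scaled to the geometric mean of the T-cell marker counts instead of TMM, the Y665F spleens kept 1 of their higher receptor calls against WT. Tnfrsf25 kept its call in that comparison (0.48). Cd27 went to -0.05, Tnfrsf18 to -0.02, Tnfrsf9 to -0.07 and Tnfrsf1b to -0.29, each with the sign turned, and Tnfrsf4 to 0.27 (adjusted p = 0.0771). Between the mutants Cd27 went from 1.07 to -0.01, Tnfrsf18 from 0.81 to -0.26, Tnfrsf25 from 0.94 to -0.13 and Fas from -0.05 to -1.14. In Y665H against WT, Cd27 went from -0.52 to -0.04, Tnfrsf9 from -0.44 to 0.04 and Tnfrsf25 from 0.13 to 0.61 (adjusted p = 0.0031). The list also carries other T-cell changes, and it shifted the median of all genes by -1.09 to 0.76 over the splenic T-cell and spleen comparisons. These values therefore describe the receptors relative to the average T-cell marker, with each marker weighing equally.

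**Figure D5:**
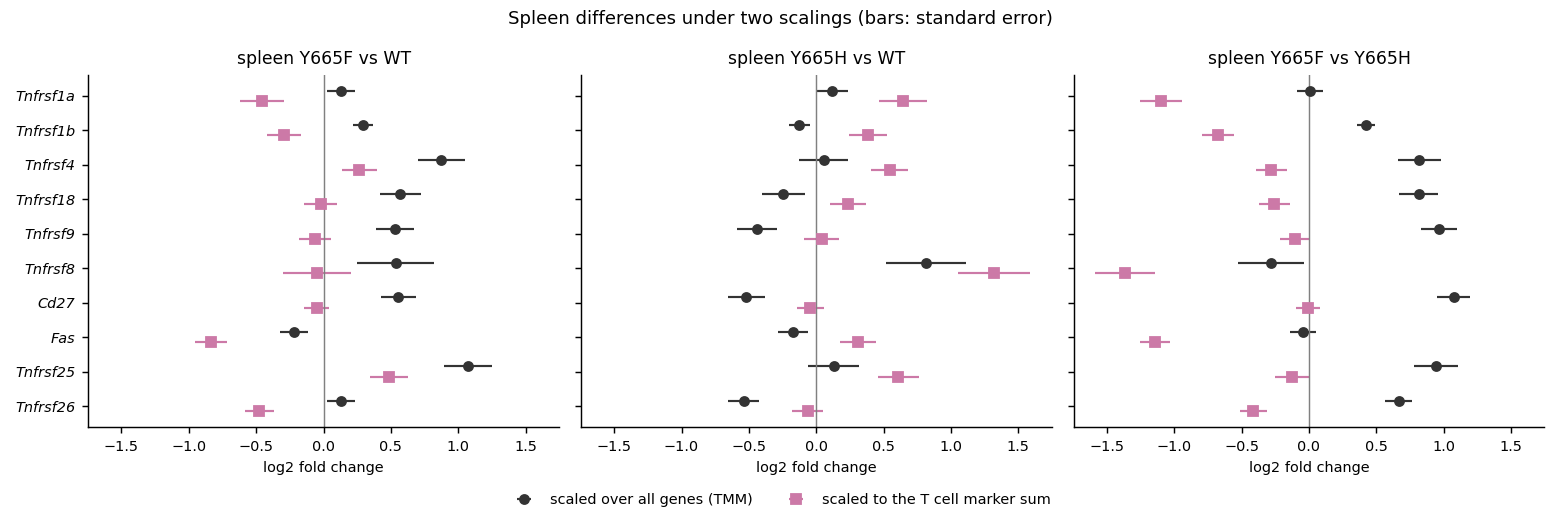
Log2 fold change (horizontal axis, ± SE) of each receptor (vertical axis) in the 3 spleen comparisons, with TMM scaling and with scaling to the summed T-cell markers. Under the T-cell scaling Cd27 lies at -0.05, -0.04 and -0.01. Between the mutants this scaling shifts every receptor downward, and Tnfrsf1a and Fas, near 0 with TMM, lie at -1.10 and -1.14.

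Overlapping genes limit the reading of single receptors. Cd27 is overlapped on the opposite strand by Vamp1 and Tnfrsf9 by Camta1, and the strand setting of the counting is not given in the sources used here. Vamp1 had log2 fold changes of -0.60 with N642H (adjusted p = 0.158) and -0.70 with Y665F (adjusted p = 0.103) in null cells, and 0.34 (adjusted p = 0.0432) between the mutant spleens, in the direction of Cd27. In splenic T cells it was -0.81 (adjusted p = 0.0361) in Y665F against Y665H, where Cd27 was -0.43, and 0.42 in Y665H against WT, where Cd27 was -0.50. Camta1 moved by 0.49 or less in size in the splenic T cells, where Tnfrsf9 moved by up to 2.89, and its part in the Tnfrsf9 value was not tested.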

How the data were processed

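Total RNA was sequenced after ribosomal RNA depletion (TruSeq Stranded Total RNA, Ribo-Zero Gold), and the count files deposited by the authors hold whole-number read counts per gene from HTSeq 0.9.1, after Trimmomatic 0.36 and alignment with STAR to mm10. The counts were not normalized by the authors. The strand setting of the counting is not given in the sources used here, and SAMtools 1.9, Picard 2.9.2 and FastQC 0.11.9 are also named in the submitters' processing notes. Each of the 61 files lists 24421 genes and 5 summary lines, which were left out. Reads without a gene made up 28.4% to 36.9% of the total in CD4 cells, 63.9% to 85.7% in splenic T cells and 62.8% to 69.4% in spleens.

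Genes with at least 10 reads over the libraries of a fit were tested with the edgeR 4.0.16 quasi-likelihood test (R 4.3.3, TMM scaling) in 5 fits and 27 comparisons, and p-values were adjusted by Benjamini-Hochberg over all genes of a fit. A gene was called at an adjusted p under 0.05, and the log2 fold change minimum of 1 that the study used was an alternative. The fits were null CD4, WT CD4, all CD4, splenic T cells and spleens, without a replicate block. Tests were checked on simulated counts.

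Replicate numbers in the labels were examined for pairing. In null CD4 cells the deviations from the group means correlated at over 0.1 in 30 of 30 pairs that share a number (median 0.465), and values with the number as a block are therefore given there. In WT CD4 cells 29 of 30 pairs did (median 0.649), in splenic T cells 5 of 21 and in spleens 4 of 13. Block values for these are given with the alternatives.

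The alternatives were DESeq2 1.42.0, relative log expression (RLE) size factors, edgeR's filterByExpr or no filter, the replicate block and a residual factor. Further ones were scaling to the geometric mean of the T-cell marker counts, the groups fitted alone and each library left out in turn. The members, gene lists and alternatives were chosen with earlier results of these data known. The genes named are the 10 members, up to 4 called genes per list and comparison with a mean of at least 1 CPM, and overlapping genes. Foxp3, Cd3d and Cd3g come from those lists. Promoter sequences were read from RefSeq, where 9 of the 10 members had a window.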

Additional observations from a re-analysis of the deposited data

Results flagged for a closer look

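In groups of 4 to 10 samples, 4 values lay farther from the rest than Dixon's 95% limit among 60 groups of values, of which chance gives about 1 in 20. Cd27 was 89.3 CPM in replicate 3 of the Y665H splenic T cells, against 116 CPM or more in the other 3. Replicate 1 of the Y665H spleens gave the other 3: Tnfrsf4 at 10.04 CPM (next 7.32), Tnfrsf18 at 14.6 CPM (next 9.61) and Cd27 at 40.2 CPM (next 27.3). Without that spleen no receptor call changed in the comparisons of Y665H with WT and of Y665F with Y665H, and Cd27 was -0.63 in Y665H against WT and 1.2 in Y665F against Y665H on the log2 scale.

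The Tnfrsf18 response to 2 vectors differed between null and WT CD4 cells in the test of the interaction. The difference was 1.02 (adjusted p = 0.0277) for N642H and 1.14 (adjusted p = 0.00797) for Y665F on the log2 scale, with the dependence on single libraries given beside these values in the report.

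For 3 receptors all the splenic T-cell libraries of one genotype moved one way and all the spleens the other, under TMM scaling. The difference was not tested, since the materials were fitted apart. The share of all genes with such opposite moves was not counted, so whether 3 receptors are more than usual cannot be told. The T-cell values of Cd27 and Tnfrsf1b did not pass (adjusted p = 0.0616 and 0.0909). Cd27 in Y665F against WT was -0.94 in splenic T cells and 0.55 in spleens. Tnfrsf1b in Y665F against Y665H was -0.62 in splenic T cells and 0.42 in spleens. Tnfrsf26 in the same comparison was -0.82 and 0.67. Scaled to the T-cell markers, Cd27 was -0.27 and -0.0524, Tnfrsf1b -0.27 and -0.68, and Tnfrsf26 -0.39 and -0.41. That scaling shifts the genes of a comparison together, with medians of all genes moved by -1.09 to 0.76. Shared signs after it therefore cannot decide whether the materials differ. The T cells had been in culture for 24 h, and culture and tissue cannot be told apart.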

How the results depend on the processing

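Of 38 called receptor values, 12 passed at an adjusted p under 0.05 in every alternative fit: Cd27 and Tnfrsf18 in null cells with N642H, in null cells with Y665F and in null against WT cells with the empty vector, Tnfrsf25 in the last comparison and in Y665F against WT spleens, Tnfrsf9 in Y665F against Y665H T cells, and Tnfrsf4, Tnfrsf9 and Tnfrsf18 with against without interleukins. A log2 fold change minimum of 1 removed 3 of the 12, Tnfrsf18 with N642H (0.84) and Y665F (0.91) and Tnfrsf25 with the empty vector (-0.99). Over all receptors and comparisons 4012 of 4190 alternative values kept their side of the threshold (234 of them changed sign without a call under either setting), 88 gained a call, 74 lost one and 16 turned sign with a call under at least 1 setting. Limits are the 3 libraries in each CD4 group, shallow splenic T-cell libraries, and libraries of WT CD4 cells whose labels give floxed Stat5a/b. The cause of the shifts below was not tested.

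The 16 came from scaling to the T-cell markers and were in spleens. In Y665F against WT these were Tnfrsf1a -0.45, Tnfrsf1b -0.29, Tnfrsf9 -0.0663, Tnfrsf18 -0.0212, Tnfrsf26 -0.48 and Cd27 -0.0524. In Y665H against WT they were Tnfrsf1b 0.38 and Tnfrsf9 0.0393. In Y665F against Y665H they were Tnfrsf1a -1.10, Tnfrsf1b -0.68, Tnfrsf4 -0.28, Tnfrsf9 -0.11, Tnfrsf18 -0.26, Tnfrsf25 -0.13, Tnfrsf26 -0.41 and Cd27 -0.00746. This scaling called 5 receptors higher in Y665H against WT spleens (Tnfrsf1a, Tnfrsf1b, Tnfrsf4, Tnfrsf8 and Tnfrsf25). The reported 3, which were lower (Cd27, Tnfrsf26 and Tnfrsf9), lost their calls. In T cells it called 1 in Y665F against WT and 1 in Y665F against Y665H. It left Tnfrsf26 at -0.39 (adjusted p = 0.347) in the last, and Tnfrsf9 at 1.89 in Y665F against WT.

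With native STAT5B in null cells (reported 1), 2 receptors were called under filterByExpr, 2 without a filter, 4 with the replicate block, 3 with a residual factor, 3 by DESeq2 and 0 at a log2 fold change beyond 1. That fold left 1 with N642H and 1 with Y665F in null cells, 0 and 0 in WT cells, 2 with the empty vector (null against WT), and 1, 0 and 1 in the spleen comparisons. DESeq2 called 2 in null Y665H against STAT5B, 2 in WT N642H, 2 in WT Y665F, and 3 and 1 in Y665F and Y665H against WT T cells. The residual factor called 1 in null Y665H against STAT5B, 1, 3 and 2 in WT cells with STAT5B, N642H and Y665F, and 5 and 5 in Y665F against WT and against Y665H T cells. Without a filter WT N642H gave 2, and RLE and filterByExpr each gave 2 in Y665F against WT T cells.

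In null cells the block called 1, 1 and 3 receptors for N642H, Y665F and Y665H against STAT5B. In WT cells 29 of 30 pairs correlated over 0.1, with a median of 0.649 against 0.465 in null cells. Of 15 WT libraries 14 correlated best with their own number, a pattern of pairing that the labels do not state. There the block called 1, 4 and 2 in WT cells with STAT5B, N642H and Y665F, among them Tnfrsf8 with N642H (2.06). It called 1, 2 and 3 for the interactions with STAT5B, N642H and Y665F, and 1 in Y665F against WT spleens, where Tnfrsf4 (0.73, adjusted p = 0.0811) and Cd27 (0.49, adjusted p = 0.114) were lost. In T cells Tnfrsf8 in Y665F against Y665H was lost (2.66, adjusted p = 0.0935). Fitted alone, the groups gave 3 in null against WT cells with the empty vector (Tnfrsf4 at an adjusted p of 0.05002 and Tnfrsf1b at 0.0818) and 0 and 0 for the N642H and Y665F interactions.

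Chosen after the data were seen, leaving out replicate 3 of all WT vectors called 1, 3 and 2 with STAT5B, N642H and Y665F, 1 in Y665H against STAT5B, and 2 and 2 for the N642H and Y665F interactions. Leaving out the 3 shallowest T-cell libraries called 1 in Y665F against WT and 1 in Y665F against Y665H. With each library left out in turn, counts ran from 0 to 3 for STAT5B in null cells, 0 to 1 for null Y665H against STAT5B, 0 to 2 for N642H and 0 to 2 for Y665F in WT cells, and 0 to 1 for both interactions. They ran from 0 to 2 in Y665F against WT T cells, 1 to 3 in Y665F against Y665H T cells, 3 to 7 in Y665F against WT spleens and 1 to 3 in Y665H against WT spleens.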

Other observations

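Over the 10 CD4 group means, the genes whose pattern was most like that of a receptor were listed for the 4 receptors that ranged over 1 or more on the log2 scale, among 1733 genes that did so. The points are group levels that share the TMM scaling, and a difference between null and WT cells alone can raise r, so the correlations are descriptions. Cd27 was most like Il6st, Gbp9 and Gbp4 (each with r = 1.00). Il6st encodes gp130, the shared receptor chain of the interleukin-6 family, and the Gbp genes encode interferon-induced GTPases. Tnfrsf18 was most like 2900026A02Rik (0.98), Cnksr3 (0.98) and Fgd6 (0.97). Tnfrsf8 was most like Cpne2 (0.97), Cd24a (0.97) and Epn2 (0.95), and Fas was most like Atp1b1 (0.98), Man1a (0.97) and Itgb8 (0.96).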
